A study of Mus musculus with 8 samples.

Results

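Complement and acute phase genes were followed in whole lungs of mice that had received bone marrow with or without nitric oxide synthases. The set holds 30 genes listed by symbol, 20 of the complement system and 10 of the acute phase, out of 23284 genes in the deposited table. The list was made with earlier results of these data known, so its shares are not those of a set chosen blind. All 30 were in the table, C1s under that older symbol, and 27 of them were high enough to be tested (10 or more in 4 or more libraries). Each of the 8 samples was the lung of a wild-type (WT) C57BL/6 mouse taken after 3 days of hypoxia. In 4 of these mice the transplanted marrow came from triply n/i/eNOS-/- donors, which lack the neuronal, inducible and endothelial enzymes (NOS-null marrow), and in 4 it came from WT donors (WT marrow). Cells of the recipient itself still carried the 3 genes, how many lung cells came from the donor is not known here, and the labels used here give no age. A lung in normal air was not analysed here.

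Complement is a set of plasma and membrane proteins that tag and lyse microbes and damaged cells. The classical and lectin pathways act through C1 or its lectin counterparts, C4 and C2, the alternative pathway acts through factors B and D and properdin, all of them meet at C3, and the terminal proteins from C5 to C9 form a membrane pore. Membrane and soluble regulators stop these steps on host cells. Acute phase proteins are secreted in inflammation, chiefly by the liver, under interleukin 6, interleukin 1 and interferon signals acting through STAT, NF-kB and C/EBP transcription factors, and lung epithelium, fibroblasts and macrophages also make many of both groups.

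Values are read counts that the authors had scaled between libraries, called scaled reads, and their sum per library was 7767065 to 8625142. Means are given ± SD with n = 4 libraries per group. Each log2 change is the mean of log2(scaled reads + 1) with NOS-null marrow less that with WT marrow, given with its standard error (SE), and it is too small for low genes because of the added 1. A gene passed when its limma p, adjusted by Benjamini and Hochberg over all 14008 genes tested, was under 0.05. The labels do not say how the mice of a group were related, so a p-value here reflects only how these samples vary, which may be in part technical, and in whole lung fewer cells of a type and less RNA per cell cannot be told apart. Nos2, the inducible enzyme's gene, stood at 13.3 to 43.5 scaled reads in the 4 NOS-null marrow libraries and 87.4 to 115.2 with WT marrow. Nos1 was listed at 0 in 7 of the 8 libraries and Nos3 stood at 170.9 to 218.9 throughout. The lung marker Scgb1a1 of airway club cells stood at 138122 to 194376. The 13 hepatocyte markers summed to only 39.0 to 47.3 scaled reads per library, with Cyp3a11 at 0 in all 8 libraries and Alb at 1.87 to 10.9.

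Of the 27 tested genes 2 passed, where 4.05% of all tested genes passed in either direction. The complement gene C4b rose with NOS-null marrow (1.87% of all tested genes rose), the complement regulator gene Cd55 fell (2.18% fell), and 25 did not pass. At an unadjusted p under 0.05 there were 10 of the 27, and 3723 of all 14008. Later counts at an unadjusted p for parts of the set or other lists stand against this same 3723 of 14008. In 4 genes, C4b, C3, Serpina3g and Lbp, every NOS-null marrow library lay above every WT marrow library, and in Cd55 every one lay below. Among all tested genes 7.82% were separated upward in this way and 9.29% downward. The log2 change was above 0 in 19 of the 27 (70.4%, against 50.1% of all tested genes), and the median log2 change was 0.33 against 0.00 over all tested genes (0.0005095). The counts depended on single libraries. Without NOS-null marrow replicate 1, 5 of the 27 rose (C2, C3, C4b, C7 and Lbp) and 0 fell, with a median of 0.42, where 1.77% of all tested genes rose and 1.74% fell. Without replicate 2, 0 rose and 0 fell, with a median of 0.17 and 8 at an unadjusted p under 0.05, where 0.385% of all tested genes rose and 0.293% fell. Without replicate 3, 4 rose and 0 fell, where 2.63% of all tested genes rose and 2.78% fell. Without replicate 4, 2 rose and 1 fell, where 2.93% of all tested genes rose and 2.76% fell. With any 1 of the WT marrow libraries left out 0 of the 27 rose, and 1 fell only without WT marrow replicate 4. In those fits the calls over all tested genes also became fewer, at 0.314%, 0.35%, 0.371% and 0.928% upward and 0.193%, 0.228%, 0.25% and 0.735% downward without WT marrow replicates 1 to 4. Without replicates 1 and 2 together C3 and C4b rose and 0 fell, where 0.692% of all tested genes rose and 0.6% fell.

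**Figure D1:**
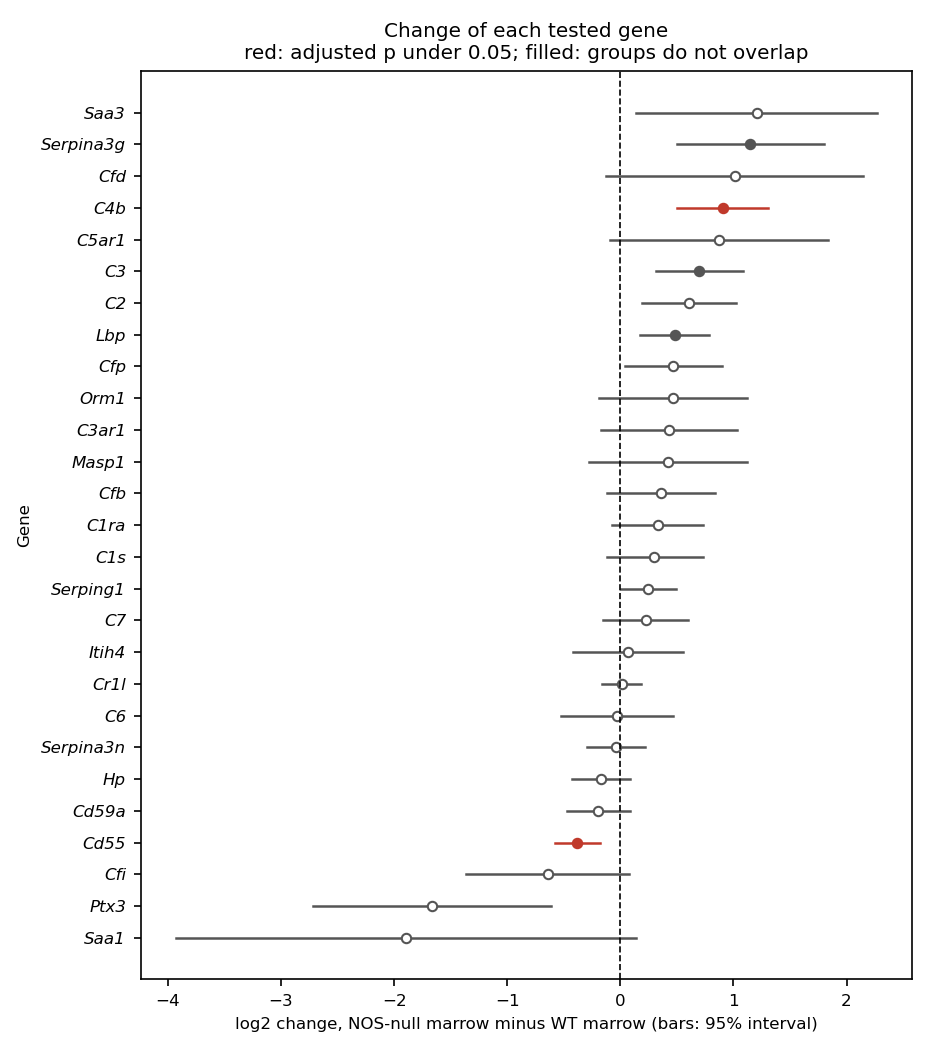
Log2 change of each of the 27 tested genes, NOS-null marrow minus WT marrow, with its 95% interval. Red marks an adjusted p under 0.05 (C4b at 0.90 and Cd55 at −0.38), and filled points mark the 5 genes whose groups did not overlap.

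NOS-null marrow replicate 2 was the highest of its group in 18 of the 27 genes, while this library was highest in 21.3% of all tested genes. Replicate 1 was the lowest of the NOS-null group in 15 of the 27, against 31.2% of all tested genes. Among the WT marrow libraries replicate 4 was lowest in 18 of the 27, against 30.3% of all tested genes. The mean deviation from the 8-library mean was 0.40 in NOS-null marrow replicate 2 and −0.37 in WT marrow replicate 4 on the log2 scale. The remaining 6 libraries lay between −0.04 and 0.05.

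**Figure D2:**
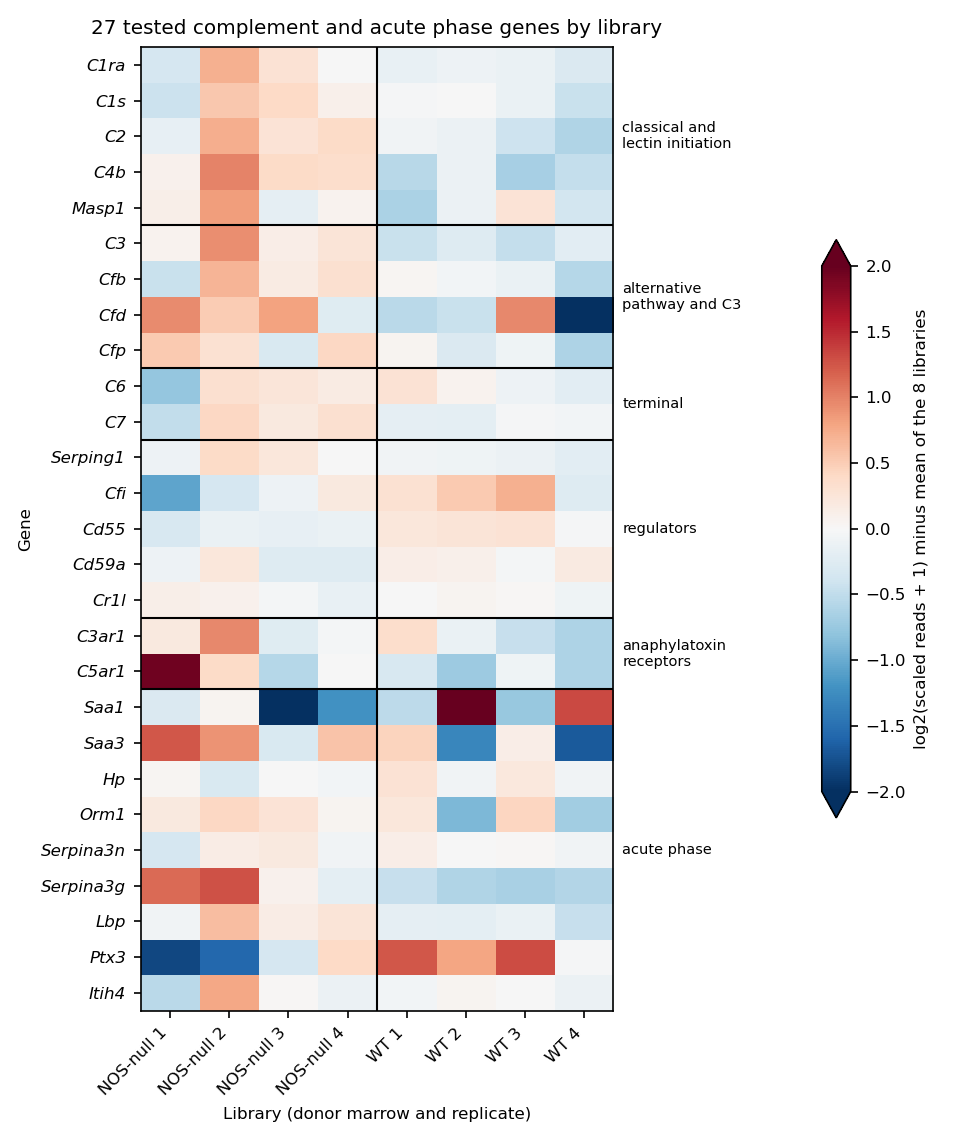
Log2(scaled reads + 1) of the 27 tested genes in each library, less the gene's own 8-library mean, ordered by role. Colours end at −2 and 2, so lower and higher deviations share the end colours. The column of NOS-null marrow replicate 2 is highest of its group in 18 of the 27 genes.

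The stretches just upstream of 5 of these genes are shown because the genes include the 3 separated ones for which a promoter sequence was at hand, C3, Serpina3g and Cd55. C7 and Itih4 share with Serpina3g a GAS match, the site type bound by STAT proteins, while their values by library differ from those of Serpina3g. Promoter windows of RefSeq genes (GRCm38.p6, 250 bases before to 50 after each start) were found for 21 of the 30 genes, in 22 windows. Each line gives the 250 bases before the start, read 5′ to 3′ on the gene's strand, with matches in capitals. The GAS pattern TTCNNNGAA gave the capitals in Serpina3g, C7 and Itih4. The NF-kB pattern, GGGA and CC with any 4 bases between them, gave the capitals in Cd55 and 3 of the stretches in C3. Of these, GGGCAGTCCC in C3 matches on the opposite strand. The C/EBP pattern TTNNGCAA gave the remaining capitals in C3 (TTGCGAAA, also on the opposite strand).
Serpina3g, chr12:104235897-104236146, plus strand: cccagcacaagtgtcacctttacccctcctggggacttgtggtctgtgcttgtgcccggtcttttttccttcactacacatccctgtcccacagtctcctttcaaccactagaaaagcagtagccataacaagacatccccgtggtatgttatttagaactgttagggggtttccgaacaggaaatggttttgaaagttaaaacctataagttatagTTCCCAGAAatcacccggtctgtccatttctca
C7, chr15:5063774-5064023, minus strand: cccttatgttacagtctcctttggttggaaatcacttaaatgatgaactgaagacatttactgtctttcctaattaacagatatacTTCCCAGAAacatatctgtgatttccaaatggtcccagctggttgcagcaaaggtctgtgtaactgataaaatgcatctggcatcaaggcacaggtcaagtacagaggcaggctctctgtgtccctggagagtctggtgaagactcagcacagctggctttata
Itih4, chr14:30886226-30886475, plus strand: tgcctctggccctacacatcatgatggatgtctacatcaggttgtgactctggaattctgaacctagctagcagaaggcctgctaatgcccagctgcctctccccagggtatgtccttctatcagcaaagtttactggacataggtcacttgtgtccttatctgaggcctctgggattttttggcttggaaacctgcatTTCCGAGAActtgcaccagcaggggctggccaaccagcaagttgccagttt
C3, chr17:57228137-57228386, minus strand: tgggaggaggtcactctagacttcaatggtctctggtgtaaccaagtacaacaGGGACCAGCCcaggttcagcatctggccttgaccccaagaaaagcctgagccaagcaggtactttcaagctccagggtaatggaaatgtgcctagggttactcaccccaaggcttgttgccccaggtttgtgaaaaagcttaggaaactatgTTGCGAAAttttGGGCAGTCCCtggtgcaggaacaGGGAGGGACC
Cd55, chr1:130462745-130462994, minus strand: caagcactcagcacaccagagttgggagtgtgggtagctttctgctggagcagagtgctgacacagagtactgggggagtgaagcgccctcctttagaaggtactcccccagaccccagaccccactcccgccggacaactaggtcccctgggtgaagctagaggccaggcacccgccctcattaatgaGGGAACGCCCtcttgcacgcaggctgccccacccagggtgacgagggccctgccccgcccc

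Both strands were searched, and GAS, which reads the same on both, was counted by place. GAS matches lay in 5 of the 22 windows (C1ra, C1rb, C7, Itih4 and Serpina3g), against 8.3% of all 32851 windows of this length. C/EBP matches lay in 8 of 22 (C1ra, C1rb, C1s, C3, Ptx3, Saa1, Saa2 and Saa3), against 10.8%. NF-kB matches lay in 6 of 22 (C3, Cd55, Ptx3, Serpina3n and, at 1 place that its overlapping windows share, C1s), against 20.7%, and matches to the interferon-stimulated response element, GAAA and GAAA with any 2 bases between them, in 3 of 22 (Cd46, Cd59a and Saa3), against 3.44%. A match describes letters and is no measured binding site. The C1ra and C1rb windows hold the same GAS letters TTCCCTGAA and the same C/EBP letters TTATGCAA, and Saa1 and Saa2 hold the same C/EBP letters TTGCACAA.

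Per unit of transcript length the levels spanned a wide range. In the deposited FPKM values (reads scaled by transcript length and library size), averaged over the 8 libraries, haptoglobin gene Hp was highest at 1074 (863.1 to 1296). Serping1 followed at 504.4, Serpina3n at 310.4, Saa3 at 186.4 and C3 at 113.4. The membrane regulator gene Cr1l stood at 80.9 FPKM, C7 at 69.2 and C1s at 59.1. The lowest were C1rb at 0.0763, Saa2 at 0.507, Masp1 at 0.554 and Cd46 at 0.849 FPKM.

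The genes of classical and lectin initiation included the gene that rose. C4b, which encodes complement C4, the substrate of C1s (chromosome 17, 34728380 to 34743882, GRCm38), stood at 1300.0, 2439.5, 1602.2 and 1561.8 scaled reads in NOS-null marrow replicates 1 to 4. With WT marrow it stood at 836.6, 1131.5, 773.6 and 880.1. All 4 NOS-null marrow libraries lay above the 4 WT marrow libraries, with replicate 2 the highest. The group means, 1725.9 ± 494.3 and 905.4 ± 156.9, gave a log2 change of 0.90 (SE 0.18, 95% interval 0.50 to 1.31, adjusted p = 0.0305). The change ran from 0.73 to 1.03 over the fits that left out 1 library, and the call was lost on leaving out NOS-null marrow replicate 2 (adjusted p = 0.0566) or any 1 of the WT marrow libraries (0.106, 0.0539, 0.0826 and 0.063 for replicates 1 to 4).

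C2, whose product joins C4 in the classical C3 convertase, lies on the same chromosome (34862604 to 34898265), next to Cfb. It stood at 202.0, 376.9, 273.1 and 295.8 scaled reads with NOS-null marrow and 214.6, 207.9, 169.5 and 148.4 with WT marrow. NOS-null marrow replicate 1 lay within the WT marrow range, and the other 3 lay above it (log2 change 0.61, SE 0.19, adjusted p = 0.0812, and 0.031 without replicate 1). In no other fit that left out 1 library did C2 pass (adjusted p up to 0.191). The C1 protease genes were also lowest in replicate 1 and highest in replicate 2 of the NOS-null group. C1ra, encoding the protease C1r, stood at 578.2, 1189.1, 893.3 and 726.5 against 596.5 to 678.1 (log2 change 0.33, adjusted p = 0.268). C1s, encoding the protease that cleaves C4 and C2, stood at 970.9, 1905.4, 1722.5 and 1398.7 against 957.6 to 1302.9 (0.30, adjusted p = 0.327). Replicate 1 lay below the WT marrow range in C1ra and near its lower end in C1s, and in both genes replicates 2 to 4 lay above it. Masp1, a protease gene of the lectin pathway, was low, at 9.86 to 20.8 against 6.96 to 13.8 (adjusted p = 0.402).

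C1rb, the neighbouring copy of C1ra, was not tested and stood at 0 to 3.12 scaled reads in all libraries. Of the distinct 75-base stretches of the annotated C1rb transcripts, the length of the reads, 49.5% also occur in C1ra transcripts, and 40.1% of those of C1ra occur in C1rb. For C4b 22.7% occur in its copy C4a, which was listed at 0 to 6.53 scaled reads. Reads from such stretches can be assigned to either copy, so the values of C1ra, C1s (shared in part with C1s2) and C4b carry this uncertainty. So do those of C2 and Cfb, since 37.0% and 69.9% of their stretches occur in Gm20547, an annotated gene that has no row in the deposited table.

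The genes of C3 and the alternative pathway all had log2 changes above 0, and none of the 4 passed (2 at an unadjusted p under 0.05). C3, the protein on which all pathways meet (chromosome 17, 57203970 to 57228136), stood at 4689.6, 8531.6, 4894.3 and 5317.4 scaled reads with NOS-null marrow and 3265.9, 3717.6, 3188.9 and 3870.1 with WT marrow. The groups did not overlap, and replicate 2 lay far above the other 3 of its group. Group means of 5858.2 ± 1801.3 and 3510.6 ± 334.4 gave a log2 change of 0.70 (SE 0.17, 95% interval 0.32 to 1.08), and the adjusted p was 0.051. It passed without NOS-null marrow replicate 1 (adjusted p = 0.034), without replicate 3 (0.0459), and without replicates 1 and 2 together (log2 change 0.54, adjusted p = 0.0248).

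**Figure D3:**
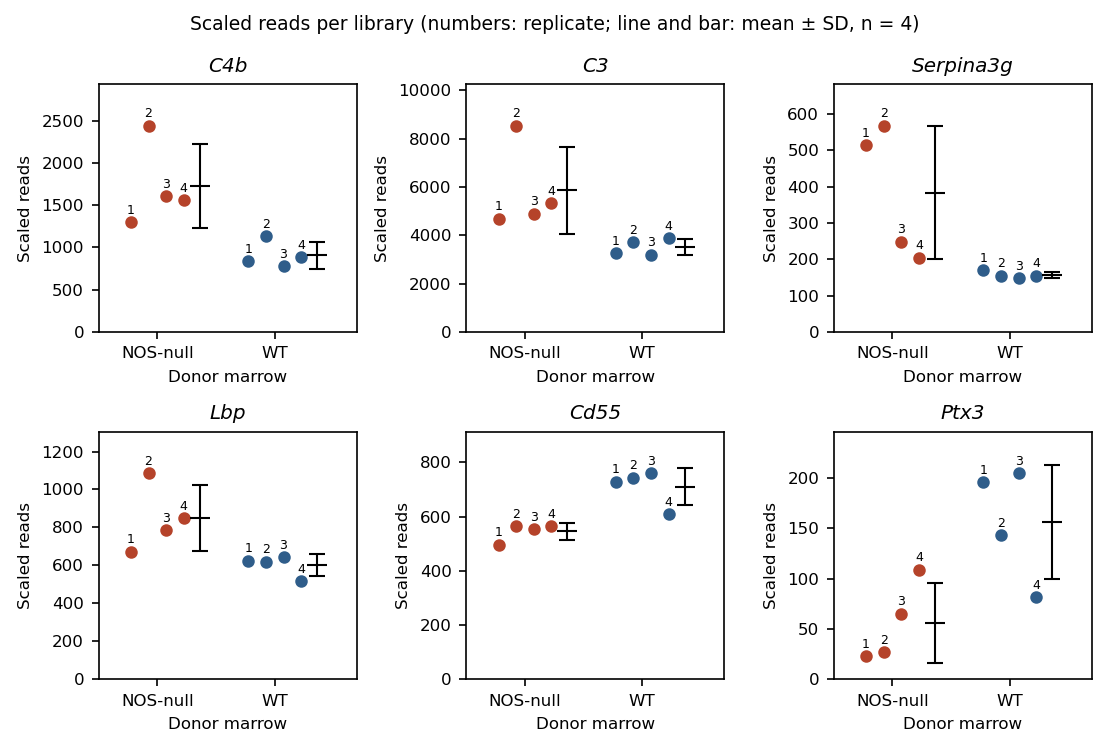
Scaled reads in each library for C4b, C3, Serpina3g, Lbp, Cd55 and Ptx3, with the replicate number beside each point and the group's mean and SD to its right (n = 4). The groups are separated in all but Ptx3, where NOS-null marrow replicate 4 (108.8) lies above WT marrow replicate 4 (81.3).

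Cfb, encoding factor B of the alternative convertase, stood at 706.4, 1533.7, 1077.7 and 1195.3 scaled reads against 643.8 to 991.6 (log2 change 0.36, SE 0.21, adjusted p = 0.302). NOS-null marrow replicate 1 again lay within the WT marrow values and the others above them. Cfp, encoding properdin, which stabilises that convertase and is made by myeloid cells, stood at 387.6, 332.1, 218.9 and 358.9 against 174.9 to 279.2 (0.47, adjusted p = 0.157). Here replicate 3 was the low library, and without it Cfp passed (0.65, adjusted p = 0.0465). In no other fit that left out 1 library did it pass (adjusted p up to 0.296).

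Cfd, encoding factor D or adipsin, an enzyme made in quantity by fat cells, varied more within the groups than between them. It stood at 274.8, 202.0, 249.5 and 120.7 scaled reads with NOS-null marrow and 97.4, 104.0, 277.9 and 35.0 with WT marrow. The highest library of all was replicate 3 of the WT marrow group, and the groups overlapped (log2 change 1.01, SE 0.51, adjusted p = 0.231). Of the 12 adipocyte markers, Adipoq, encoding adiponectin, and Car3, carbonic anhydrase 3, were high in the same libraries, and others were not. Adipoq stood at 44.1, 25.0, 38.5 and 13.1 against 11.9, 15.9, 51.2 and 9.45, and Car3 at 383.4, 277.0, 387.5 and 191.4 against 199.7, 141.4, 494.7 and 65.2. Adrb3, a beta-adrenergic receptor gene, stood at 45.1 to 74.0 with NOS-null marrow and at 27.6 in WT marrow replicate 3, and Slc36a2 was nearly level at 254.3 to 324.9 in all libraries. The 12 markers summed to 627.6 to 972.2 with NOS-null marrow and 479.3 to 1013.0 with WT marrow, with Lep and Ucp1 at or near 0, and the part of fat tissue in the Cfd values was not tested.

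The terminal genes C6 and C7, which encode subunits of the membrane attack complex and both lie on chromosome 15, did not pass. C6 stood at 245.0, 526.9, 496.9 and 473.1 scaled reads against 364.9 to 515.7 (log2 change −0.03, 95% interval −0.52 to 0.47, adjusted p = 0.951). C7 stood at 1015.0, 1905.4, 1638.7 and 1770.7 against 1246.7 to 1395.4 (0.22, adjusted p = 0.413). NOS-null marrow replicate 1 had the lowest value of all 8 libraries in both genes. Without it C7 passed (0.42, adjusted p = 0.0257), and the log2 change of C6 was 0.23 (adjusted p = 0.269). In no other fit that left out 1 library did C7 pass (adjusted p up to 0.708). The 10 fibroblast markers summed to 15942 scaled reads in replicate 1, to 24977 to 29319 in the other 3 NOS-null marrow libraries and to 26309 to 30805 with WT marrow. That low sum came mainly from Col3a1, a collagen gene, at 2791.8 in replicate 1 and 7591.4 to 13380 in the other 7 libraries. Replicate 1 was the lowest of all 8 libraries in 5 of the 10 markers, while in Pi16 (727.9) it was the highest, and in Pdgfra (3662.2) it lay above every WT marrow library. Of these markers 1 rose, Scara5 (log2 change 1.14, adjusted p = 0.0191), and 9 did not pass. Scara5 lost its call without NOS-null marrow replicate 2 (0.0634) and without WT marrow replicates 1, 2 and 3 (0.0567, 0.0561 and 0.0604), and 0.0775 was its adjusted p without NOS-null marrow replicates 1 and 2 together. The part of fibroblasts in the low terminal values was not tested.

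Among the regulators, Cd55 fell and the others did not pass. Cd55 encodes decay-accelerating factor, which takes apart the C3 convertases on host cell membranes (chromosome 1, 130439027 to 130462744). It stood at 496.2, 565.4, 553.1 and 564.5 scaled reads with NOS-null marrow and 728.3, 743.7, 760.8 and 608.8 with WT marrow. The NOS-null marrow libraries lay close together and below all WT marrow libraries. Group means of 544.8 ± 32.9 and 710.4 ± 69.0 gave a log2 change of −0.38 (SE 0.09, 95% interval −0.58 to −0.18, adjusted p = 0.0466). The change stayed between −0.45 and −0.33 when 1 library was left out, but it passed only without WT marrow replicate 4 (adjusted p = 0.0367) and in none of the other 7 such fits. Adjusted p was 0.0679, 0.108, 0.057 and 0.0527 without NOS-null marrow replicates 1 to 4 and 0.137, 0.107 and 0.115 without WT marrow replicates 1 to 3. It was 0.0553 with no filter on low genes and 0.147 without NOS-null marrow replicates 1 and 2 together.

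Markers of B cells were low in the same group. The 7 B cell markers summed to 75.9, 250.9, 918.9 and 937.5 scaled reads in NOS-null marrow replicates 1 to 4 and to 1303.6 to 2640.5 with WT marrow, without overlap, and none of the 6 tested passed (all 6 at an unadjusted p under 0.05). Their range among the NOS-null marrow libraries was wide, while that of Cd55 was narrow, and their part in the Cd55 difference was not tested. The B cell complement receptor gene Cr2 stood at 2.05, 12.5, 34.5 and 47.9 against 52.0 to 118.0 (log2 change −2.10, adjusted p = 0.11).

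Serping1, encoding C1 inhibitor, which blocks C1r and C1s, was the regulator of highest level. It stood at 6293.1, 8852.3, 7872.9 and 6692.2 scaled reads against 5824.0 to 6406.6 (log2 change 0.25, SE 0.11, adjusted p = 0.185), so replicates 2 to 4 lay above the WT marrow range. Cr1l, encoding Crry, the rodent membrane regulator of C3 convertases, stood at 885.3 to 1070.4 against 927.3 to 1020.0, a log2 change of 0.01 with a 95% interval of −0.17 to 0.19 (adjusted p = 0.942). Its direction changed under upper quartile scaling (−0.04). Cd59a, whose product blocks the membrane pore, stood at 158.8 to 222.8 against 185.3 to 215.5 (−0.19, adjusted p = 0.334). Cfi, the protease that inactivates C3b and C4b, was low at 7.18 to 18.5 against 13.2 to 26.6 (−0.64, adjusted p = 0.233). Cd46, the membrane cofactor gene, was not tested, at 3.08 to 12.0 against 3.78 to 8.43.

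The anaphylatoxin receptor genes, expressed on myeloid cells, followed different libraries. C5ar1, the receptor of C5a, stood at 719.7, 242.6, 125.2 and 186.0 scaled reads with NOS-null marrow and 112.4 to 176.4 with WT marrow. Its high library was NOS-null marrow replicate 1, and the log2 change of 0.87 (SE 0.43, adjusted p = 0.225) was 0.37 without that library. C3ar1, the receptor of C3a, stood at 180.4, 307.2, 133.1 and 153.4 against 200.7, 144.2, 114.3 and 103.0 (0.43, adjusted p = 0.326), and its high library was replicate 2.

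Neutrophil markers were high in the library where C5ar1 was high. The 11 neutrophil markers summed to 103450, 15862, 8441.8 and 10313 scaled reads in NOS-null marrow replicates 1 to 4 and to 3976.9 to 7810.6 with WT marrow, and none of the 10 tested passed (8 at an unadjusted p under 0.05). Among the 12 monocyte and macrophage markers 9 were highest of all 8 libraries in NOS-null marrow replicate 2, where C3ar1 was highest, C1qa, C1qb and C1qc of the C1q chains among them. The other 3, the monocyte genes Ccr2, Ly6c2 and F13a1, were highest in replicate 1, and F13a1 was lowest of all 8 in replicate 2 (322.8). The C1q genes are complement genes too and also stand on the list of further complement genes. Replicate 2 was likewise the highest of the NOS-null group in 18 of the 27 tested complement and acute phase genes. C1qa stood at 565.9, 1435.8, 724.7 and 659.1 against 413.1 to 609.1 (log2 change 0.62, adjusted p = 0.152). The 12 markers summed to 40518 to 52249 against 33911 to 45374, of which Lyz2 alone made up 29032 to 42138 per library, and none of them passed (6 at an unadjusted p under 0.05). The part of these cell types in the receptor values was not tested.

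**Figure D4:**
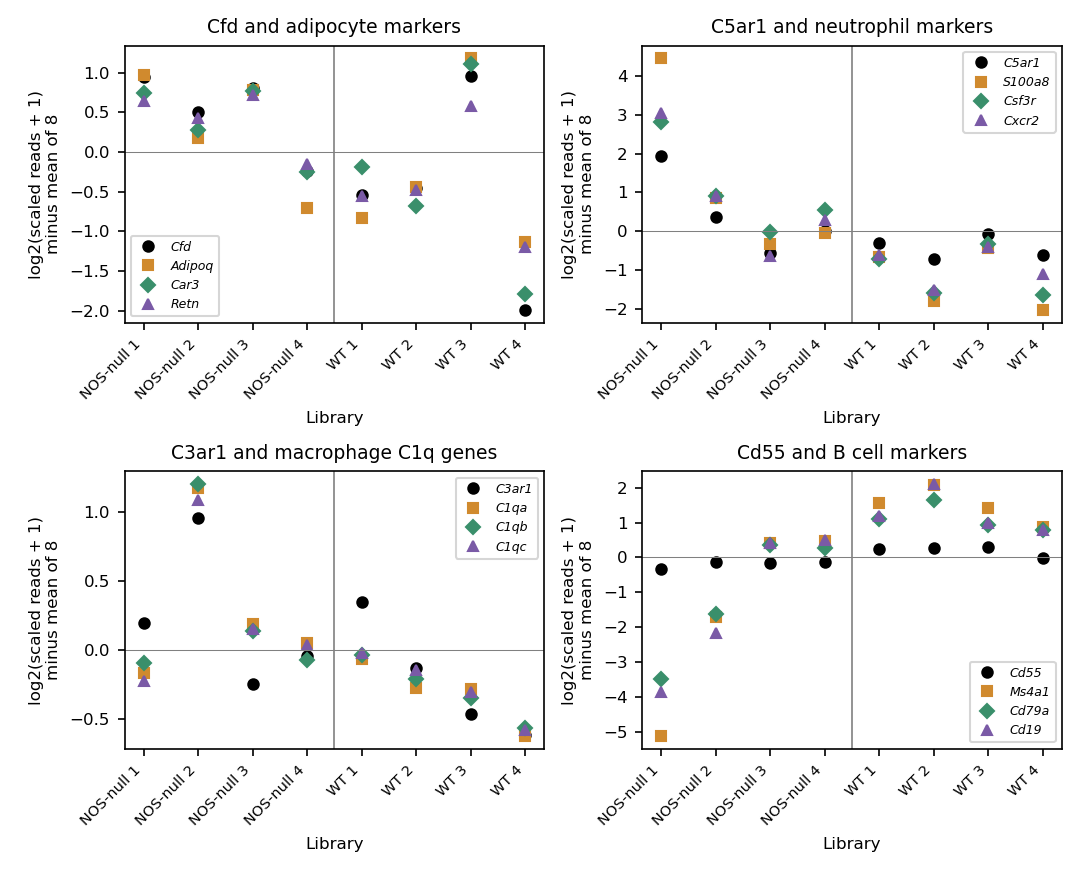
Log2(scaled reads + 1) less the 8-library mean for Cfd, C5ar1, C3ar1 and Cd55 (black), each with 3 marker genes of a cell type, in each library. Cfd and the 3 fat markers plotted are high together in WT marrow replicate 3, C5ar1 and the neutrophil markers in NOS-null marrow replicate 1, and C3ar1 and the C1q genes in NOS-null marrow replicate 2. The C1q genes, plotted as macrophage markers, are also complement genes.

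Of the 10 acute phase genes 9 were tested, none passed (4 at an unadjusted p under 0.05), and their median log2 change was 0.07, with 5 above 0 and 4 below. Serpina3g, encoding a serine and cysteine protease inhibitor of immune cells that is induced by interferon gamma, had the largest log2 change of the 4 genes separated upward. It stood at 514.6, 568.3, 248.5 and 204.5 scaled reads with NOS-null marrow and 169.9, 154.6, 148.8 and 155.0 with WT marrow. The WT marrow libraries were nearly level, and NOS-null marrow replicates 1 and 2 held more than replicates 3 and 4. Group means of 384.0 ± 184.0 and 157.1 ± 9.01 gave a log2 change of 1.15 (SE 0.29, adjusted p = 0.0544). It passed without replicate 3 (1.31, adjusted p = 0.0422) and without replicate 4 (1.41, adjusted p = 0.0188). In no other fit that left out 1 library did it pass (adjusted p up to 0.141).

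Lbp, encoding the protein that presents bacterial lipopolysaccharide to CD14, stood at 672.6, 1087.0, 786.8 and 848.4 scaled reads with NOS-null marrow. With WT marrow it stood at 625.0, 619.1, 642.5 and 516.1, below all of these (log2 change 0.48, SE 0.14, adjusted p = 0.0684, and 0.0314 without NOS-null marrow replicate 1). In no other fit that left out 1 library did Lbp pass (adjusted p up to 0.157). Itih4, a heavy chain gene of the inter-alpha-trypsin inhibitor family, stood at 465.5, 1159.9, 686.2 and 623.2 against 623.9 to 700.6, with replicates 1 and 2 at the extremes (0.07, 95% interval −0.42 to 0.55, adjusted p = 0.87). Without replicate 2 its log2 change was −0.18. The 3 genes whose printed stretches hold a GAS match, C7, Itih4 and Serpina3g, were all highest of their group in NOS-null marrow replicate 2. So were 18 of the 27 tested genes, C3 and Cd55 without a GAS match among them. C1ra, with a GAS match after its start, was also highest there and lowest in NOS-null marrow replicate 1. Any part of GAS sites in the order of libraries was not tested. C7 and Itih4 were lowest in NOS-null marrow replicate 1, and Serpina3g stood at 514.6 there, above every WT marrow library.

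Ptx3, encoding the long pentraxin PTX3, which binds C1q and microbes, was lower on average with NOS-null marrow. It stood at 22.6, 27.1, 65.1 and 108.8 scaled reads against 195.7, 143.3, 205.0 and 81.3. WT marrow replicate 4 lay below NOS-null marrow replicate 4, so the groups overlapped (log2 change −1.66, SE 0.47, adjusted p = 0.0684). Without NOS-null marrow replicate 4 it passed (−2.07, adjusted p = 0.0249). In no other fit that left out 1 library did it pass (adjusted p up to 0.182). Il6, the gene of the main inducer of the acute phase, had a like order of libraries, at 2.05, 12.5, 12.8 and 47.9 against 89.4, 58.1, 109.4 and 28.4 (−2.32, SE 0.72, adjusted p = 0.0843). Il6 was picked after its values were seen. Il1b, another cytokine gene of the inducer list, went the other way. It stood at 1046.8, 619.5, 295.8 and 387.2 against 326.9, 186.4, 427.7 and 94.5 (log2 change 1.22, adjusted p = 0.143). Of the 28 inducers tested, 19 had a log2 change above 0 and 9 below. The part of any inducer in the Ptx3 values was not tested.

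The serum amyloid A genes, which lie together on chromosome 7, differed from each other. Saa3, made by macrophages and epithelium outside the liver, stood at 988.4, 773.6, 337.2 and 620.0 scaled reads with NOS-null marrow and 566.3, 167.7, 458.2 and 128.6 with WT marrow. Replicate 3 of the NOS-null group lay within the WT marrow range (log2 change 1.21, SE 0.48, adjusted p = 0.147). Saa1 stood at 15.4, 19.8, 2.96 and 7.61 against 12.9, 269.8, 10.8 and 49.2 (−1.90, SE 0.92, adjusted p = 0.214), and WT marrow replicate 2 held most of its reads. Saa2 was not tested, at 0 to 4.93 in all libraries, and 17.8% of its 75-base stretches occur in Saa1.

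The other acute phase genes, Hp, Serpina3n and Orm1, overlapped between the groups. Hp, encoding haptoglobin, which binds free haemoglobin, stood at 8232.8 to 10422 scaled reads against 9645.9 to 12365 (log2 change −0.17, 95% interval −0.43 to 0.08, adjusted p = 0.354). Serpina3n, a serine protease inhibitor gene, stood at 3860.1 to 5573.6 against 4613.1 to 5327.6 (−0.03, interval −0.29 to 0.22, adjusted p = 0.869). Orm1, encoding orosomucoid, stood at 37.0 to 47.9 against 18.7 to 48.3 (0.47, adjusted p = 0.325).

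Other genes of these systems, listed from general knowledge, were read in the same fit. Of 40 genes listed as further complement genes 21 were tested, 1 rose, none fell and 20 did not pass, with a median log2 change of 0.10. Among all tested genes 1.87% rose and 2.18% fell. The riser was Cd5l, encoding a secreted scavenger receptor protein of macrophages, at 19.5, 13.5, 10.9 and 17.4 scaled reads against 4.97, 2.81, 5.91 and 1.89 (log2 change 1.79, SE 0.37, adjusted p = 0.0316). Cd5l is on that list but is none of the complement proteins named above. It is a low gene, and every WT marrow value lay under the filter minimum of 10. Cd5l was thus tested only through the NOS-null marrow libraries, where it was high. The call was lost on leaving out NOS-null marrow replicate 1 (0.0537) or 2 (0.0896), or any 1 of the WT marrow libraries (0.0792, 0.0811, 0.0588 and 0.0595 for replicates 1 to 4), and without NOS-null marrow replicates 1 and 2 together (0.145). The genes of the late terminal subunits C8a, C8b and C9 were at or near 0. Of 37 further acute phase genes 20 were tested and none passed in limma. At an unadjusted p under 0.05 there were 10 of them, 7 higher and 3 lower, and 3723 of all 14008 tested genes. The highest were Cp, encoding ceruloplasmin, at 5099.0 to 7991.2 in all libraries (adjusted p = 0.71), and Lcn2, encoding the iron-trapping protein lipocalin 2 of neutrophils and epithelium. Lcn2 stood at 6464.3, 5046.7, 2573.3 and 2276.4 against 1431.2 to 1937.5 (log2 change 1.16, SE 0.30, adjusted p = 0.0542), without overlap, and it is also one of the neutrophil markers.

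Of 30 inducers of these genes, cytokines, their receptors and transcription factors, 28 were tested, 1 rose, none fell and 27 did not pass (median log2 change 0.12). Among all tested genes 1.87% rose and 2.18% fell. Il6ra, the ligand-binding receptor chain of interleukin 6, rose from 139.5 ± 24.5 to 349.7 ± 173.0 scaled reads (log2 change 1.22, SE 0.28, adjusted p = 0.045). It stood at 593.6, 349.8, 244.5 and 211.0 with NOS-null marrow and 104.9 to 162.6 with WT marrow, again with replicates 1 and 2 the highest. The call was lost on leaving out NOS-null marrow replicate 2 (0.124) or any 1 of the WT marrow libraries (0.128, 0.106, 0.0857 and 0.0802 for replicates 1 to 4). It was also lost with no filter (0.0524), in the FPKM table (0.051), with robust limma (0.0617) and without NOS-null marrow replicates 1 and 2 together (0.0784).

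Marker genes of the lung's cell types were read in the same fit, and 5 of them passed, Scara5 included. These were 1 higher and 1 lower of 10 tested on the alveolar macrophage list. The others were 1 of 10 for fibroblasts, 1 of 8 for endothelium and 1 of 6 for mesothelium, all higher. Every other marker list had 0, and 4.05% of all tested genes passed. Siglec5, the symbol under which the table lists Siglecf, a lectin of alveolar macrophages and eosinophils, fell from 124.8 ± 17.4 to 43.1 ± 7.91 scaled reads (log2 change −1.52, adjusted p = 0.00248), in all 8 fits that left out 1 library too. Ear2, a ribonuclease gene of the same alveolar macrophage list, rose from 316.6 ± 55.9 to 599.6 ± 111.1 (0.92, adjusted p = 0.0186), so these markers did not move together. Ear2 missed the threshold on leaving out replicate 2 of the NOS-null group (0.0609), replicate 2 or 3 of the WT group (0.0603 and 0.0597), or NOS-null marrow replicates 1 and 2 together (0.056). Vwf, encoding von Willebrand factor of endothelium, rose from 2473.1 ± 410.0 to 4579.0 ± 855.1 (0.88, adjusted p = 0.0191), but not on leaving out replicate 2 of the NOS-null group (0.0632) or replicate 1, 2 or 3 of the WT group (0.0744, 0.0628 and 0.0588). Upk1b of mesothelium rose from 659.6 ± 56.5 to 931.0 ± 141.6 (0.49, adjusted p = 0.0469), and in the fits without 1 library it passed only without NOS-null marrow replicate 1 (0.00894). Its call was also lost with no filter (0.0553), under upper quartile scaling (0.0716) and in the FPKM table (0.0508).

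The markers of highest level did not pass, apart from Upk1b. For neutrophils these were S100a8 (log2 change 2.46, adjusted p = 0.124) and S100a9 (2.49, 0.0969), and for B cells Cd79b (−1.85, 0.0578) and Cd79a (−2.23, 0.0916). Sftpc (−0.28, 0.274) and Sftpb (−0.10, 0.602) marked alveolar type 2 cells, and Scgb1a1 (−0.18, 0.516) and Cyp2f2 (0.03, 0.838) marked airway cells. On the alveolar macrophage list the highest were Chi3l3 (1.05, 0.0563) and Car4 (0.01, 0.97). On the monocyte and macrophage list they were Lyz2 (0.17, 0.408) and Mrc1 (0.26, 0.354). A listed gene may also be expressed by other cells of the lung. Endothelium was marked by Pecam1 (0.18, 0.227) and Cdh5 (0.14, 0.368), and fibroblasts by Col3a1 (−0.79, 0.206) and Col1a2 (−0.45, 0.13). The highest on the mesothelium list were Krt19 (−0.28, 0.2) and Upk1b. The highest adipocyte markers were Slc36a2 (0.03, 0.865) and Car3 (0.77, 0.339), and the highest hepatocyte markers, both under 20 scaled reads, were Fgg (0.13, 0.884) and Apob (−0.97, 0.141). Of the 8 genes of type 2 cells 1 reached an unadjusted p under 0.05, of the 7 airway genes 0, of the 9 tested adipocyte genes 2 and of the 2 tested hepatocyte genes 1. The part of these cell types in the values of the complement and acute phase genes was not tested.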

How the data were processed

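RNA from 8 lungs was measured. Per the submitters' processing notes, reads were processed with CASAVA 1.8.2, TopHat2 2.0.13, Bowtie2 2.2.3, SAMtools 0.1.19 and Cufflinks 2.2.1 on mm10; for the gene annotation and settings the sources used here say nothing. The authors deposited a gene table of signal values on the read count scale, divided by a factor per library, and an FPKM table. Low values in a library were often multiples of a common step, such as 1.025, 2.051 and 3.076 in NOS-null marrow replicate 1. Whole reads were not restored from these values and no count model was run, so single-library counting errors are not given. Groups were read from sample titles, because the design text calls both groups NOS-null. The deposited signal values were increased by 1 and log2-transformed, and the 14008 of 23284 genes with at least 10 in at least 4 libraries were fitted with limma 3.58.1 (R 4.3.3, trend on, no other term). No batch is given in the labels used here. In simulated data (14019 genes) the procedure recovered 36 of 67 genes changed 1.5-fold, 58 of 67 changed 2-fold and 65 of 66 changed 4-fold, and 12 of its 171 calls were false. The simulated noise was normal and independent between genes, and changes were placed only in genes of higher level. Deviations that many genes of a library share were not simulated, so these rates need not hold for the real libraries.

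The genes and lists were chosen with earlier results of these data known. Named are all 30 genes, of each other pathway list the genes past the threshold or else the 2 highest, of each marker list both, and Nos1, Nos2 and Nos3. Adipoq, Adrb3, the C1q genes, Ccr2, Ly6c2, F13a1, Pi16, Pdgfra, Cr2, Alb, Cyp3a11, Lep, Ucp1, C8a, C8b, C9, Il6 and Il1b in the text, and the marker genes plotted, were picked after their values were seen. Positions and transcripts came from GENCODE vM21 (GRCm38, the assembly of mm10), and promoters from RefSeq (GRCm38.p6). Alternatives were another pseudocount, filter, scaling, table and variance model, a replicate block, and fits without libraries.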

Additional observations from a re-analysis of the deposited data

Results flagged for a closer look

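Of 60 groups of 4 libraries examined over the 30 genes, 2 held a value set apart from its group by Dixon's rule at the 95% level, which chance meets in about 1 of 20 groups. C3 stood at 8531.6 scaled reads in NOS-null marrow replicate 2, against 4689.6 to 5317.4 in the other 3 libraries of its group. Saa1 stood at 269.8 in WT marrow replicate 2, against 10.8 to 49.2 in the other 3.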

How the results depend on the processing

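The 27 tested genes were refitted under 17 alternatives each. Of these 459 values 421 kept their direction and their side of the threshold, 15 lost and 10 gained a call and 13 changed direction. The values that changed direction belonged to genes near 0. Without NOS-null marrow replicates 1 and 2 together C6 was at 0.19, Cr1l at −0.089, Serpina3n at 0.043 and Itih4 at −0.018, and Cr1l was at −0.036 under upper quartile scaling. Leaving out 1 library gave −0.14 to 0.23 for C6, −0.027 to 0.064 for Cr1l, −0.11 to 0.070 for Serpina3n and −0.18 to 0.26 for Itih4.

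Leaving out 1 library gave 0 to 5 genes higher and 0 to 1 lower among the 27, with a median of 0.17 to 0.42. In the other complement genes it gave 0 to 1 higher, 0 to 1 lower and a median of −0.042 to 0.12, in the other acute phase genes 0 to 1 higher and in the inducers 0 to 2 higher and 0 to 1 lower. Over all tested genes it gave 44 to 411 higher and 27 to 389 lower. Without NOS-null marrow replicates 1 and 2 together 2 of the 27 rose (C3 and C4b) and 0 fell, 0 further complement genes rose (median −0.013), 0 inducers rose, and over all genes 97 rose and 84 fell. With no filter 0 of the 27 fell, 0 inducers rose, and the median of the other complement genes was −0.15. The inducer count upward was also 0 in the FPKM table and with robust limma, and 1 further acute phase gene rose under upper quartile scaling. The replicate numbers are shared between groups, and same-numbered libraries had correlations of deviations of 0.0428, 0.169, −0.00266 and 0.151 (highest with another number 0.112, 0.0622, 0.0748 and 0.0496). The same number gave the higher value in replicates 2 and 4 and the lower in 1 and 3, which does not settle whether libraries are paired. The labels name no pairs, and the main fit used none. With a replicate block 1 of the 27 rose and 0 fell, 0 further complement genes and 0 inducers rose, and over all genes 81 rose and 54 fell, against 262 and 305 without it. Under the block Cd55 (adjusted p = 0.0772), Cd5l (0.0698), Il6ra (0.0658) and Upk1b (0.082) lost their calls, and C4b (0.0134), Scara5 (0.0381), Ear2 (0.0409), Siglec5 (0.0134) and Vwf (0.0304) passed. No cause of these changes was tested.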
